A study of Mus musculus with 18 samples.

Results

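The 10 genes described here encode transcription factors that set up the fields of the hippocampus and the areas of the cortex. They are Prox1, Zbtb20, Lhx2, Lhx9, Emx1, Emx2, Pou3f1, Mef2c, Nr2f1 and Nr2f2. They were chosen by name out of 56577 gene names in 4 tables of RNA-seq values, with earlier results of these data known. Each of the 10 had an entry in every table. In the first table, 3 control (Ctrl) hippocampal libraries at postnatal day 0 were compared with 3 conditional knockout (cKO) libraries of the Kdm2b Emx1-ΔCxxC genotype. KDM2B carries a CxxC zinc finger that binds CpG-rich DNA and brings the variant Polycomb complex PRC1.1 to it, and Emx1-Cre removed the exon of this finger alone. Other tables held the same genotypes in hippocampal neurospheres, which are floating cultures of neural progenitors, and in the cortex, with 2 Ctrl and 2 cKO libraries each. The last compared 2 Ctrl with 2 cKO hippocampi labelled as an Emx1-Cre deletion of Rnf2, the gene for the PRC1 ubiquitin ligase RING1B. Controls carried floxed alleles in the heterozygous or the homozygous state (Kdm2b fl/+ or Kdm2b fl/fl, and Rnf2 fl/+ or Rnf2 fl/fl), and the labels did not tell these apart or say whether controls carried Cre. Emx1-Cre is active in dorsal telencephalic progenitors and their descendants, not in interneurons, microglia or vessels, and its driver Emx1 is one of the 10 genes. Samples of all 4 tables are labelled postnatal day 0, which for the neurospheres is the age of the source hippocampi. The neurospheres had been passaged for 3 generations with growth factors according to the methods.

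Areal identity in the dorsal telencephalon is laid down by graded transcription factors in progenitors. Lhx2 and Emx2 act early, Lhx2 by keeping cortical progenitors from becoming hem and Emx2 by promoting caudal and medial fates including the hippocampus. Later factors mark single fields, such as Prox1 in dentate granule cells and Zbtb20 in hippocampal pyramidal and granule neurons. Nr2f1 and Nr2f2 (COUP-TFI and COUP-TFII) are nuclear receptors of caudal and ventral territories, Mef2c is a neuronal activator, and Pou3f1 is a POU factor of upper-layer and pyramidal neurons.

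Values were FPKM (fragment counts divided by transcript length and by library size), and differences were measured on log2(FPKM + 1), which understates the change of low genes. Calls required a log2 fold change of more than 0.4 in either direction and an unadjusted p under 0.05 in limma, and p values adjusted over every gene in the fit are given beside. Genes below a mean of 0.5 FPKM were not tested. Depth per library cannot be read from the hippocampal and neurosphere values, whereas whole reads could be recovered in the other tables, between 18.5 and 21.9 M (mega) per cortical and 14.7 and 16.3 M per Rnf2 library. The labels did not say that replicates came from separate litters or animals, so p values measure only the spread between these samples. Kdm2b itself stood at 29.4 ± 2.15 FPKM (SD, n = 3) in Ctrl and 27.2 ± 0.992 (n = 3) in cKO hippocampi, and a value for the whole gene does not resolve the removed exon. Rnf2 stood at 31.5 ± 1.02 (n = 2) in Ctrl and 28.1 ± 0.494 (n = 2) in Rnf2 cKO hippocampi, a log2 difference of −0.16 that was not called (limma adjusted p = 0.762), so the level of the gene does not itself show the deletion that the labels give. Libraries also stood apart. The first hippocampal cKO library alone carried Xist among the hippocampi of that table (154 FPKM), the first cKO neurosphere library and the first cortical Ctrl library alone had under 1 FPKM of it in theirs, and the first Ctrl neurosphere library summed to 855276 FPKM where the lowest summed to 452580. Falls and rises called within a table are given with and without these libraries, except for Emx1 in neurospheres, whose call is a description.

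In hippocampi 2 of the 10 factors were called, both among the lower ones in level. In controls Lhx2 was the highest at 118 ± 5.25 FPKM (SD, n = 3), at the 96.5 percentile of the genes tested. Nr2f1 followed at 86.4 ± 13.4 FPKM, and the ranges of these genes did not overlap. Zbtb20 (42.9), Emx1 (40.2), Prox1 (34.3), Nr2f2 (31.4) and Emx2 (27.1 FPKM on average) came next, with ranges that overlapped from each to its neighbour. Mef2c lay lower at 17.0 ± 1.41 FPKM, apart from Emx2 above it and from Lhx9 below it, while Lhx9 (14.1 ± 1.74) and Pou3f1 (11.9 ± 3.27) overlapped. Prox1 and Zbtb20, the defining factors of dentate and hippocampal neurons, were thus well expressed in tissue labelled hippocampus.

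**Figure D1:**
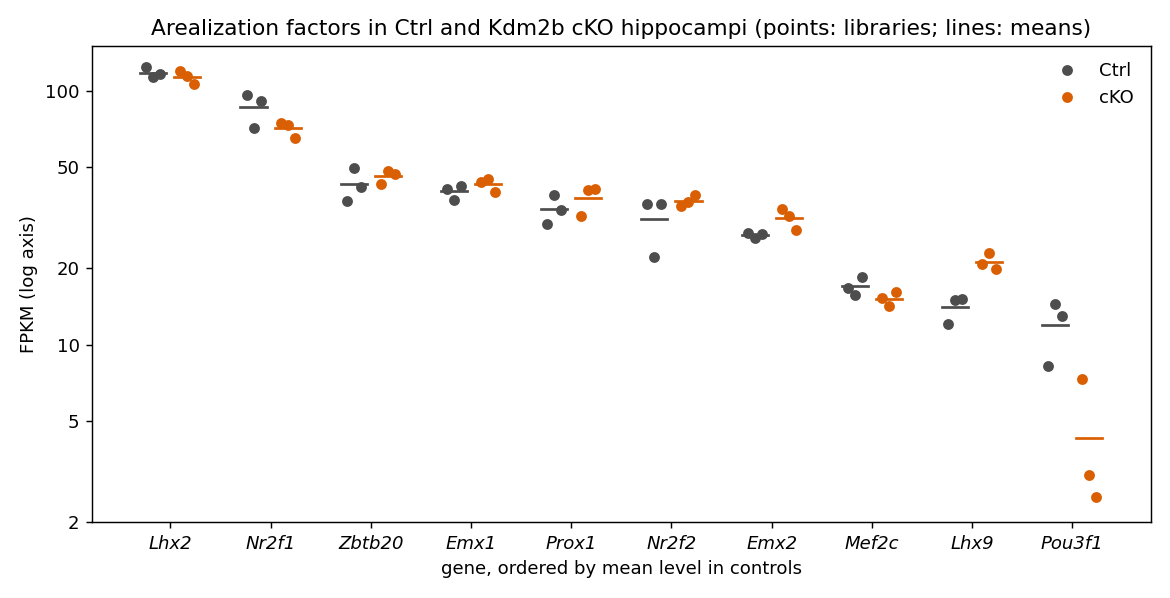
FPKM of each factor in every hippocampal library on a log axis, with grey points for 3 Ctrl and orange points for 3 Kdm2b cKO libraries and lines for the means. Lhx9 in cKO libraries sits at 19.9 to 23.0 FPKM, all above the controls, and Pou3f1 at 2.51 to 7.32 FPKM, all below them.

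Pou3f1 fell and Lhx9 rose in Kdm2b cKO hippocampi. Pou3f1 read 8.26, 14.5 and 13.0 FPKM in Ctrl and 7.32, 3.08 and 2.51 FPKM in cKO hippocampi. Every cKO library lay under every control, although the highest cKO library was close to the lowest control. The log2 fold change was −1.36 (SE 0.30, adjusted p = 0.0280 in limma), a 2.57-fold difference on the log2(FPKM + 1) scale. Without the first cKO library, the one with Xist, the change was −1.74 with an adjusted p of 0.00642. Leaving out each library in turn gave −1.74 to −1.12, with the call held each time and an adjusted p of up to 0.0980.

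Lhx9, a LIM homeodomain factor of the medial pallium and the diencephalon, read 12.1, 15.0 and 15.1 FPKM in Ctrl and 20.8, 23.0 and 19.9 FPKM in cKO hippocampi. The groups did not overlap, and the log2 fold change was 0.57 (SE 0.092, adjusted p = 0.00916 in limma). It stayed between 0.47 and 0.62 when each library was left out, and was 0.58 without the first cKO library. Its close relative Lhx2 went from 124, 114 and 117 to 120, 115 and 107 FPKM, and these groups overlapped.

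The other 8 factors were not called in hippocampi. Emx2 read 27.5, 26.4 and 27.3 FPKM in Ctrl and 34.2, 32.3 and 28.3 FPKM in cKO, so that all cKO libraries lay above, but the log2 fold change of 0.21 (SE 0.070) was under the threshold of size. Nr2f1 had a log2 fold change of −0.26 (SE 0.11, adjusted p = 0.174), with 96.9, 71.2 and 91.1 FPKM against 75.1, 73.7 and 65.6. A single control, at 71.2 FPKM, lay among the cKO values. Nr2f2 had 36.0, 22.2 and 36.0 FPKM in Ctrl and 35.2, 36.4 and 39.0 FPKM in cKO, where the same control library was low. Prox1 had a log2 fold change of 0.14 (SE 0.11), which was 0.26 and still not called without the first cKO library. The field factor Zbtb20 (0.11, SE 0.096), the driver gene Emx1 (0.09, SE 0.064) and Mef2c (−0.15, SE 0.076) overlapped between groups, and so did Prox1.

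Counted over the 10 genes, all of which were tested, 1 was called higher and 1 lower, where 3.89% and 2.25% of the 13446 genes tested were called higher and lower. Groups did not overlap for 3 of the 10, against 29.2% of all genes tested. The median log2 fold change of the 10 was 0.10 and that of all genes 0.01. In bulk tissue, fewer cells of a type and less RNA per cell cannot be told apart.

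**Figure D2:**
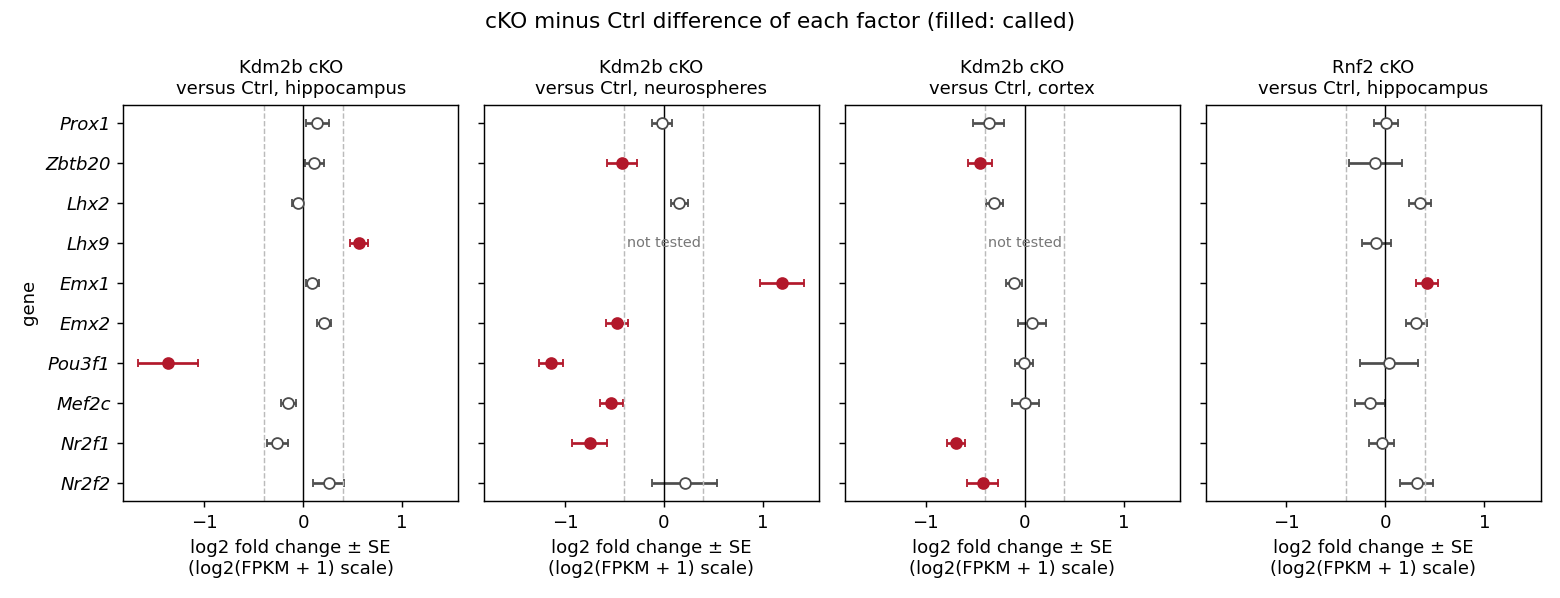
Log2 fold change (cKO minus Ctrl, on the log2(FPKM + 1) scale) with its SE for each factor in the 4 comparisons, where filled red points are called and dashed lines mark 0.4 in size. Pou3f1 is called lower in hippocampi and neurospheres of Kdm2b cKO mice, Nr2f1 and Zbtb20 in neurospheres and cortex, and Emx1 is past the thresholds in neurospheres, where it was tested only through its cKO values, and in Rnf2 cKO hippocampi.

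Markers of cell types moved in the same hippocampal libraries. The summed level of 10 excitatory neuron markers was 1138 to 1227 FPKM in Ctrl and 859 to 969 FPKM in cKO hippocampi, and 3 of the 10 were called lower, namely Slc17a7, Camk2a and Nrgn, which encode a glutamate transporter, a kinase of the synapse and a calmodulin-binding protein. Of 10 progenitor markers, 4 were called higher (Pax6, Hes1, Nes and Vim) and none lower, with sums of 1116 to 1199 in Ctrl and 1147 to 1269 FPKM in cKO. Of 7 thalamic markers 6 were tested, 1 was called higher (Tcf7l2, 0.952 to 1.58 FPKM), and the sums were 116 to 129 in Ctrl and 135 to 144 FPKM in cKO. That sum was mostly Calb2 (95.2 FPKM in Ctrl), which Cajal-Retzius cells and interneurons also express. Of 7 Cajal-Retzius markers, Lhx1 and Ebf3 were called higher and Reln was 96.0 in Ctrl and 94.0 FPKM in cKO. Neocortical neuron markers, 9 of 10 tested, had no call, with sums of 62.9 to 70.8 in Ctrl and 71.0 to 79.1 FPKM in cKO. The part of these shifts in the changes of Pou3f1 and Lhx9 was not tested.

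Of 7 microglial markers 3 were called higher, Cx3cr1, C1qa and C1qb (16.4 to 24.9 FPKM), and the sums were 43.8 to 50.6 in Ctrl and 56.1 to 72.6 FPKM in cKO. No interneuron (12 tested), endothelial (7) or meningeal (7) marker was called. Of the choroid plexus markers, 3 of 6 were tested and 2 were called higher, Ttr and Clic6 (the latter at 0.255 FPKM in Ctrl, below the filter), with sums of 5.47 to 16.8 FPKM in Ctrl and 7.17 to 59.8 FPKM in cKO. Among 9 astrocyte and oligodendrocyte markers, Aqp4 was called lower.

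Markers of the hippocampal fields gave a further view of the tissue. Of 20, 17 were tested, 2 were called lower and none higher, and the median log2 fold change was −0.11. Fibcd1, a CA1 marker, fell from 8.31 ± 1.44 to 4.56 ± 0.889 FPKM (SD, n = 3 each), and C1ql3 from 2.17 ± 0.386 to 1.36 ± 0.670 FPKM. The sums were 299 to 327 in Ctrl and 275 to 311 FPKM in cKO.

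A further 25 patterning factors of the cortex, beyond the 10, were all tested in hippocampi, and 7 were called higher and 1 lower, with a median log2 fold change of 0.08. The 4 with the largest rises were Lef1 (5.07 to 12.9 FPKM), Eomes (14.8 to 34.2), Pax6 (5.48 to 10.6) and Gli3 (3.51 to 6.85). These encode a Wnt effector, the intermediate progenitor factor TBR2, a radial glial factor and a Hedgehog effector. Bcl11b, the factor CTIP2 of CA1 and deep-layer neurons, was called lower at 19.2 ± 0.663 in Ctrl and 13.4 ± 3.72 FPKM in cKO (adjusted p = 0.0624 in limma). Of 19 family relatives of the 10 factors, 14 were tested and 2 called higher, Lhx1 (2.54 to 4.55 FPKM) and Lmx1a (1.29 to 2.62 FPKM). Pou3f3, the most abundant relative of Pou3f1, read 67.9 ± 4.32 in Ctrl and 67.7 ± 9.60 FPKM in cKO, and Pou3f2 and Pou3f4 were not called either.

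In hippocampal neurospheres the factors had another order of level. Nr2f1 (54.1 ± 5.81 FPKM, SD, n = 2) and Lhx2 (54.1 ± 0.426) were the highest in controls with ranges that overlapped, followed by Emx2 (15.1), Pou3f1 (12.5) and Prox1 (12.2 FPKM on average). Zbtb20 (6.26) and Mef2c (5.18) lay lower. Lhx9 and Nr2f2 were under 1 FPKM in both controls and Emx1 was at 0.175 and 0 FPKM, at the 0.532 percentile of the genes tested. Progenitor markers summed to 4226 to 4681 FPKM in controls and astrocyte and oligodendrocyte markers to 2484 to 2542 FPKM, so the cultures held progenitor and glial transcripts while the Emx1 gene that marks pallial progenitors was listed at or near 0.

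**Figure D3:**
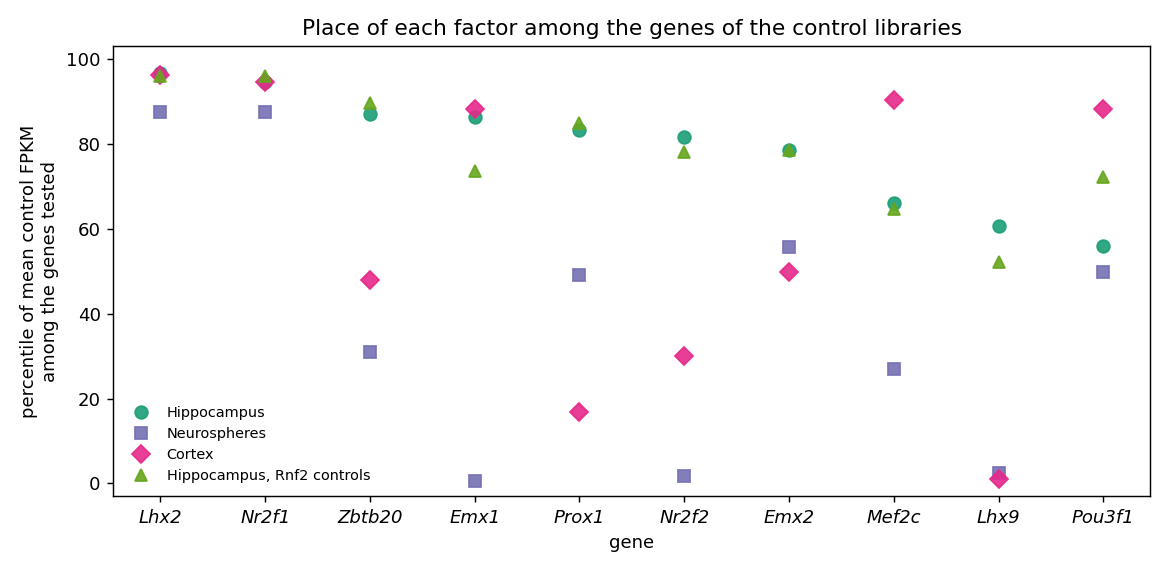
Percentile of each factor's mean control FPKM among the genes tested, for the 4 sets of control libraries. Lhx2 and Nr2f1 sit above the 87 percentile in every set, while Emx1 sits at the 0.532 percentile in neurospheres and Lhx9 to 2.48 in neurospheres and 1.00 in cortex.

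Pou3f1 fell in neurospheres too, and 4 more factors with it. Pou3f1 read 13.0 and 11.9 FPKM in Ctrl and 5.65 and 4.61 FPKM in cKO neurospheres (log2 fold change −1.14, SE 0.12, adjusted p = 0.00329 in limma). The groups stood clear of each other. Nr2f1 read 58.2 and 49.96 FPKM in Ctrl and 38.0 and 26.3 FPKM in cKO (−0.75, SE 0.18, adjusted p = 0.0353 in limma), and again all cKO values lay below. Mef2c went from 5.43 and 4.92 to 3.16 and 3.37 FPKM (−0.53, SE 0.12, adjusted p = 0.0278 in limma). Emx2 went from 15.0 and 15.3 to 9.66 and 11.7 FPKM (−0.47, SE 0.11, adjusted p = 0.0332 in limma), and Zbtb20 from 6.07 and 6.45 to 5.16 and 3.75 FPKM (−0.42, SE 0.15, adjusted p = 0.0987 in limma). Emx2 and Zbtb20 lay near the threshold of size. Emx2 was at −0.35 and not called without the first cKO library, the one without Xist, and Zbtb20 was lost without either control or without the second cKO library (−0.46, −0.39 and −0.24).

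The size of some of these falls hung on single libraries. Nr2f1 kept its call with each library left out, but ran from −0.49 without the second cKO library to −1.01 without the first, and over all settings its adjusted p reached 0.229. Without the first cKO library Pou3f1 was at −1.26, Mef2c at −0.50 and Zbtb20 at −0.61 (adjusted p = 0.0169 in limma). Without the first Ctrl library, the one with the highest FPKM total, Pou3f1 was at −1.08 (adjusted p = 0.0489 in limma), Nr2f1 at −0.64, Mef2c at −0.47 and Emx2 at −0.49, all called, with adjusted p values of 0.183 to 0.208 for the last 3.

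Emx1 stood at 0.175 and 0 FPKM in Ctrl and at 1.16 and 1.84 FPKM in cKO neurospheres. It passed the filter on low values only through the cKO libraries, so its call (log2 fold change 1.19) is a description and supports nothing. Under a filter of 1 FPKM, or without the second cKO library, it was not tested. With a pseudocount of 0.1 the value became 3.23, and 1 control was listed at 0, so its size is not fixed by these data. Lhx2 went from 53.8 and 54.4 to 57.3 and 63.4 FPKM without a call (0.15, SE 0.087), and Prox1 (−0.02, SE 0.099) and Nr2f2 (0.21, SE 0.33) overlapped between groups. Nr2f2 read 1.29 and 0.212 FPKM in cKO, and was at 0.67 without the second cKO library. Lhx9, at 0.734 and 0.441 FPKM in Ctrl and 0.330 and 0.0606 FPKM in cKO, was not tested.

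Of the 10 factors 9 passed the filter on low values, and 5 were called lower. The remaining call was that of Emx1, and over all genes 13.2% and 11.4% of 12226 were called lower and higher. With a filter of 1 FPKM, 7 factors were tested, with 5 called lower and 0 higher. Groups did not overlap for 7 of the 9, near the 66.4% of all genes. Because the first Ctrl library had the highest FPKM total, rescaling every library to the same total shifted the median of all genes by 0.11 and turned 1392 higher and 1619 lower calls into 1256 and 830. Under that scaling 3 of the factors were called, with Pou3f1 at −1.03, Nr2f1 at −0.63 and Emx1 at 1.25, while Emx2 (−0.36), Mef2c (−0.44) and Zbtb20 (−0.32) kept their direction and lost the call.

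Marker genes moved widely in the same cultures. Of 9 astrocyte and oligodendrocyte markers 7 were called lower, among them Aldh1l1 (58.8 to 10.5 FPKM), Gfap (24.5 to 5.13), Pdgfra (44.9 to 11.5) and Aqp4 (3.10 to 0.962 FPKM). Of 10 progenitor markers 3 were called higher, Nes, Vim and Mki67, and 2 lower, Hes1 and Hes5, and the sums were 5639 to 7463 FPKM in cKO. Of interneuron markers, Dlx1 and Dlx2 stood at 0.0761 and 0.0865 FPKM in Ctrl and at 2.84 and 4.19 FPKM in cKO, and Npas1 and Htr3a were called lower. Of 4 thalamic markers tested, Gbx2 and Ntng1 were called higher and Tcf7l2 lower. Of the 25 other patterning factors, 21 were tested and 4 called in each direction, with Lef1 (0.393 to 2.17 FPKM) the largest rise by fold. Of the field markers Pcp4 fell from 18.9 ± 5.65 to 0.378 ± 0.0571 FPKM (SD, n = 2 each), and Bok, Amigo2 and Nrp2 were among those called higher. Of 10 family relatives tested, Vax2 was called higher (0.431 to 1.71 FPKM). Of neuron markers, Snap25 and Camk2a were called lower and Rbfox3 higher among 7 excitatory ones, Tle4 and Tshz2 lower and Unc5d higher among neocortical ones, and Trp73 and Ebf3 higher among 3 Cajal-Retzius ones. No endothelial, meningeal or choroid plexus marker was called, and no microglial marker reached the filter. Of the 21 genes called higher over all lists, 10 had a control mean below the filter of 0.5 FPKM, among them Dlx1, Dlx2, Lef1, Vax2, Ntng1, Unc5d, Trp73 and Ebf3, and of the 26 called lower 5 had a cKO mean below it, with Pcp4, Camk2a, Npas1 and Htr3a. Such genes were tested only through the group where they are high, so their calls are no support for a change. The part of these shifts in the falls of Pou3f1 and Nr2f1 was not tested.

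The cKO effects in hippocampi and neurospheres were compared directly as the interaction of genotype and table. Of 9 factors tested, 4 had an effect that differed, where 26.9% of 11080 genes did. Emx2 differed by 0.69 (SE 0.13, adjusted p = 0.00305 in limma), with 0.21 in hippocampi and −0.47 in neurospheres. It was 0.56 to 0.81 with each library left out. Zbtb20 differed by 0.53 (SE 0.18, adjusted p = 0.0481), a call that was lost without the second cKO neurosphere library (0.35, unadjusted p = 0.0647). Nr2f1 differed by 0.49 (SE 0.22, adjusted p = 0.121), and this call was lost in 10 of the settings tried, among them median-ratio scaling, a variance prior without a trend and 5 of the libraries left out, down to 0.23 without the second cKO neurosphere library. The fourth was Emx1, for which the limit of the neurosphere values given above holds too. For Pou3f1 the difference was −0.22 with an SE of 0.44, so these data do not tell equal from unequal falls in tissue and culture.

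In the cortex Mef2c and Pou3f1 stood high and the hippocampal factors low. Lhx2 (65.9 ± 3.54 FPKM, SD, n = 2) and Nr2f1 (51.1 ± 4.76) led in controls, followed by Mef2c (32.6), Pou3f1 (28.1) and Emx1 (27.8 FPKM on average), whose ranges overlapped in turn. Emx2 (5.72) and Zbtb20 (5.32) overlapped as well, and Nr2f2 (2.41), Prox1 (1.19) and Lhx9 (0.361 FPKM) lay under them. Levels were normalized separately in each table, so only the order within a table and the percentiles can be set side by side.

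Nr2f1, which patterns caudal and sensory cortex, fell in Kdm2b cKO cortices. It read 54.4 and 47.7 FPKM in Ctrl and 31.5 and 30.7 FPKM in cKO, from 5165 to 6110 recovered reads in Ctrl and 2923 to 3146 in cKO libraries. The log2 fold change was −0.70 (SE 0.093, adjusted p = 0.0880 in limma), and the call held with each library left out, at −0.60 without the first Ctrl library. Zbtb20 went from 5.96 and 4.68 to 3.49 and 3.69 FPKM (−0.45, SE 0.12, adjusted p = 0.246 in limma) and Nr2f2 from 2.84 and 1.97 to 1.65 and 1.40 FPKM (−0.42, SE 0.16, adjusted p = 0.370 in limma). Both were lost without the first Ctrl library, the cortex without Xist, at −0.31 and −0.24, and without either cKO library, at −0.42 and −0.49 for Zbtb20 and −0.50 and −0.35 for Nr2f2.

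Lhx2 (68.4 and 63.4 FPKM in Ctrl, 54.0 and 52.2 in cKO) and Prox1 (1.43 and 0.948 in Ctrl, 0.698 and 0.682 in cKO) also lay lower in every cKO library without a call. Pou3f1, by contrast to the hippocampus, read 26.3 and 29.8 FPKM in Ctrl and 28.6 and 27.2 FPKM in cKO cortices, a log2 fold change of −0.01 (SE 0.090). Mef2c (0.01, SE 0.14) and Emx2 (0.07, SE 0.14) overlapped, and Emx1 was −0.11 (SE 0.083).

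Of 9 factors tested in the cortex, 3 were called lower and none higher, where 2.28% of 15691 genes were called lower and 4.73% higher. None had an adjusted p under 0.05. Without the threshold of size 4 had an unadjusted p under 0.05 in limma, where 1212 of all genes were higher and 801 lower. Limma-voom on recovered reads called 4 factors, where 1051 of all genes were called higher and 412 lower. The call it added was Prox1 at −0.75 (adjusted p = 0.148 in limma-voom). Groups did not overlap for 6 of the 9, against 44.8% of all genes, and the median log2 fold change was −0.31 against −0.01 over all genes. The cKO cortices also carried more meningeal transcripts, with sums of 1.46 to 2.29 FPKM over 7 markers in Ctrl and 21.2 to 35.5 FPKM in cKO. The 6 of these that were tested had control means of 0.213 to 0.392 FPKM and passed the filter only through the cKO libraries, as did Aqp1. Of 7 endothelial markers 3 were called higher, with sums of 35.4 to 35.9 in Ctrl and 56.5 to 57.7 FPKM in cKO, and of 7 microglial markers 3, with sums of 14.4 to 16.2 and 21.8 to 28.7 FPKM. The endothelial genes were Cldn5, Tek and Cdh5 and the microglial ones C1qa, C1qb and Csf1r. Excitatory neuron markers summed to 941 to 1029 in Ctrl and 956 FPKM in both cKO libraries, with none of 10 called. Of the other lists, Dmrt3 among 24 patterning factors (1.10 to 2.56 FPKM), Nes among 10 progenitor markers, Aqp1 among choroid plexus markers and Pdgfra among 7 glial markers were called higher, Prox2 among 11 family relatives was called lower, and none of 12 field, 7 neocortical, 4 thalamic, 12 interneuron or 6 Cajal-Retzius markers tested was called. The part of these shifts in the falls of Nr2f1, Zbtb20 and Nr2f2 was not tested.

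Against the hippocampus, 5 of 9 factors had a cKO effect that differed in the cortex, where 6.98% of 10718 genes did, and none had an adjusted p under 0.05. Pou3f1 differed by −1.35 (SE 0.42, adjusted p = 0.168 in limma), Nr2f2 by 0.68 (SE 0.25), Zbtb20 by 0.56 (SE 0.16), Prox1 by 0.51 (SE 0.19) and Nr2f1 by 0.44 (SE 0.16), with adjusted p values of 0.143 to 0.251 among these 5. Without the first cortical Ctrl library 2 of the 5 remained, Pou3f1 and Zbtb20, while Prox1 (0.35, unadjusted p = 0.104), Nr2f1 (0.34, 0.0785) and Nr2f2 (0.50, 0.0898) lost the call. Nr2f1 lost it without 3 other libraries as well (0.30 to 0.42), and Nr2f2 without the second cKO cortex (0.61).

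**Figure D4:**
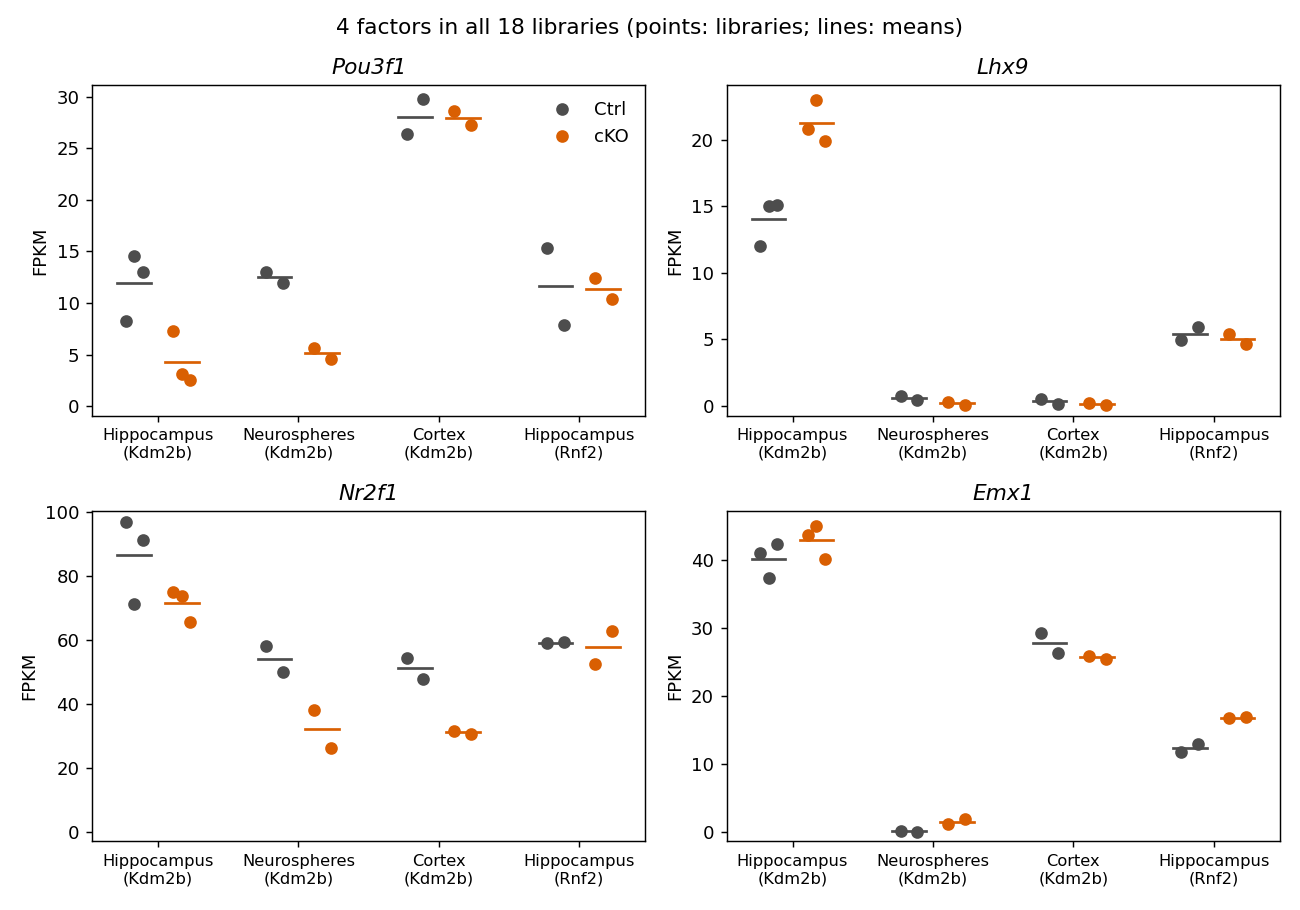
FPKM of Pou3f1, Lhx9, Nr2f1 and Emx1 in all 18 libraries, by table, with grey points for Ctrl and orange points for cKO libraries and lines for the means. Pou3f1 falls in Kdm2b cKO hippocampi and neurospheres and stays at 26.3 to 29.8 FPKM in all cortical libraries, and Nr2f1 separates the groups in neurospheres and cortex.

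In the hippocampi labelled Rnf2 cKO, no factor had an adjusted p under 0.05. Nr2f1 (59.1 ± 0.208 FPKM, SD, n = 2) and Lhx2 (57.8 ± 4.39) were again highest in controls, with overlapping ranges, and Lhx9 (5.45 ± 0.684) was lowest. Emx1 was called higher, from 11.7 and 12.9 FPKM in Ctrl to 16.7 and 16.9 FPKM in cKO (log2 fold change 0.42, SE 0.11, adjusted p = 0.643 in limma). The call stood close to the threshold of size and was lost without either cKO library (0.42 to 0.43) or without the first control (0.36). Lhx2 went from 54.7 and 60.9 to 70.7 and 76.9 FPKM (0.35, SE 0.11) and Emx2 from 14.7 and 15.9 to 19.7 and 18.8 FPKM (0.31, SE 0.11). All cKO values of these 3 pallial factors lay above the controls, and so did those of Nr2f2 (12.5 and 17.3 against 19.01 and 18.2 FPKM).

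Neither gene called in Kdm2b cKO hippocampi was called in Rnf2 cKO hippocampi. Pou3f1 read 15.3 and 7.87 FPKM in Ctrl and 12.4 and 10.4 FPKM in cKO, so that the controls spanned the cKO values (log2 fold change 0.03, SE 0.29). Lhx9 read 4.96 and 5.93 FPKM in Ctrl and 5.42 and 4.66 FPKM in cKO (−0.09, SE 0.15). Zbtb20 differed as widely between its controls, at 21.3 and 37.0 FPKM, as Pou3f1 did, and choroid plexus markers summed to 50.7 and 12.8 FPKM in these controls and to 244 and 7.84 FPKM in the cKO libraries. Meningeal sums were 38.3 FPKM in both controls and 17.3 to 26.1 FPKM in cKO, with 4 of 6 tested called lower (Col1a1, Col1a2, Lum and Col3a1). Of 25 patterning factors Dmrt3 and Nfix were called higher and Lmo3 and Etv1 lower, and of 12 family relatives tested Lhx1 and Vax1 were called higher. Calb1 was called lower among 13 field markers, Hes1 higher among 10 progenitor markers, Dlx2 and Htr3a among 12 interneuron markers and Lhx1 and Ebf3 among 7 Cajal-Retzius markers. No excitatory, neocortical, thalamic, endothelial, microglial, choroid plexus or glial marker was called.

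All 10 factors were tested, with 1 called higher and none lower, where 2.86% and 1.85% of 15764 genes were called higher and lower, and groups did not overlap for 4 of 10, near the 38.3% of all genes. By limma, 0 had an adjusted and 3 an unadjusted p under 0.05. Over all genes, 692 higher and 429 lower ones had an unadjusted p under 0.05 in limma. Limma-voom on recovered reads called 1 factor, where 402 of all genes were called higher and 354 lower. The median log2 fold change was 0.02 against 0.00 over all genes. Between Kdm2b and Rnf2 cKO hippocampi 3 of 10 effects differed, where 8.84% of 11276 genes did: Pou3f1 by −1.39 (SE 0.49), Lhx9 by 0.66 (SE 0.16) and Lhx2 by −0.40 (SE 0.11). Their adjusted p values were 0.200, 0.0885 and 0.111 in limma. The Pou3f1 difference lost its call without the first Rnf2 cKO library (−1.28, unadjusted p = 0.0526) or the second Rnf2 control (−0.95, 0.0896). That of Lhx2 stood at the threshold of size and fell below it when libraries were rescaled to the same total (−0.38) and without any of 4 libraries (−0.37 to −0.33), whereas that of Lhx9 held at 0.55 to 0.77 with each library left out.

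Side by side, the log2 fold changes of Pou3f1 were −1.36 in Kdm2b cKO hippocampi, −1.14 in neurospheres, −0.01 in cortex and 0.03 in Rnf2 cKO hippocampi. Those of Nr2f1 were −0.26, −0.75, −0.70 and −0.04 in the same order, and those of Emx2 0.21, −0.47, 0.07 and 0.31. Over 18 libraries, each centred on the control mean of its table, the genes most like Pou3f1 by Pearson's r among 9616 genes were Arhgef28 (0.888), Ica1 (0.886), Prickle2 (0.883), Rbfox1 (0.879) and Uqcrc2 (0.850). These libraries share tables, controls and normalization, so r is a description of them. Lhx9 could not be ranked in this way because it was under the filter in 2 tables.

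Several of the factors share exons with genes on the other strand, and the library kit does not mark strand. Emx2 shares 264 exonic bases with Emx2os, which was called higher in Kdm2b cKO hippocampi (2.21 ± 0.288 to 3.56 ± 0.396 FPKM, SD, n = 3 each). Nr2f1 shares 123 with A830082K12Rik, which was called lower in neurospheres (17.4 ± 1.21 to 9.03 ± 1.15 FPKM, SD, n = 2 each) together with Nr2f1. Pou3f1 shares 330 of 3849 with Gm2164. Nr2f2 shares 643 with B130024G19Rik, Prox1 133 with Prox1os and Zbtb20 104 with Gm9968. Reads in these stretches cannot be assigned to a strand, and Lhx2, Lhx9, Emx1 and Mef2c shared no exonic base with a gene on the other strand.

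Since the removed zinc finger binds CpG dinucleotides, the promoters of the factors were counted for them. RefSeq windows of 300 bases, 250 before and 50 after a start site (build GRCm38.p6), were given for 9 of the 10, all but Pou3f1. The motif searched was CG, which reads the same on both strands, and 94.6% of the 32851 windows of this length held it at least once, with a median of 7 and quartiles of 3 and 20. Emx1 held 37 (5.58% of windows held at least as many), Lhx2 34 and 29 in its 2 windows, Emx2 26, Prox1 25 and 14, and Nr2f1 23 and 4. Lhx9 held 6, Zbtb20 3, Nr2f2 2 and Mef2c 1, 10 and 4. The Zbtb20 window has its start at base 43247284, inside a gene that begins at base 42875881. Those of Lhx9, Emx1, Emx2 and Nr2f1 also start inside their genes. For Zbtb20 and each of these, the counts therefore do not cover the outermost start of the gene. Among these 9, genes called in a Kdm2b comparison had windows on both sides of the median of 7, for example Lhx9 with 6 and Nr2f1 with 23 and 4. Binding of KDM2B was not measured in these data.

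**Figure D5:**
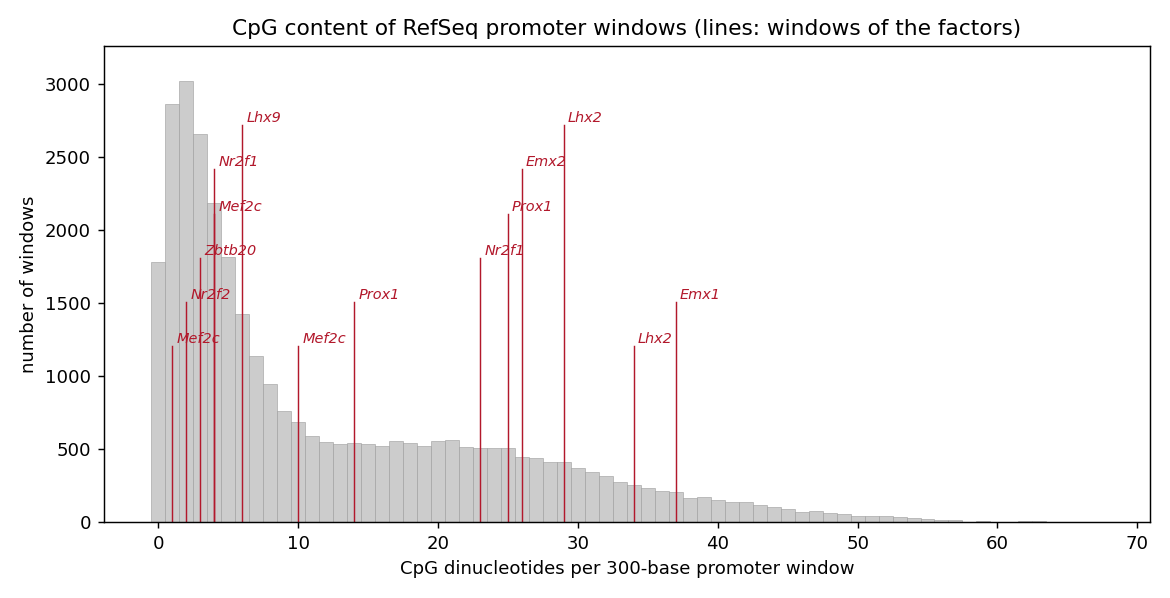
Number of CpG dinucleotides in each of 32851 RefSeq promoter windows of 300 bases (grey bars), with a red line for every window of the 9 factors that have 1. Lines reach from 1 CpG at a Mef2c start to 37 at Emx1, with Lhx9 at 6.

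The windows of Lhx9, Nr2f1 and Emx1 are printed with each CG in capitals. That of Lhx9 holds 6, near the median of 7 over all windows, and those of Nr2f1 and Emx1 hold 23 and 37. The windows were picked to show these counts only, and the neurosphere call of Emx1 supports nothing. Lhx9 lies on the minus strand of chromosome 1 (ENSMUSG00000019230) and its window is chr1:138842395-138842694, with the start site in an annotated exon and the gene reaching further upstream. Nr2f1 (ENSMUSG00000069171) lies on the minus strand of chromosome 13, window chr13:78198824-78199123, and Emx1 (ENSMUSG00000033726) on the plus strand of chromosome 6, window chr6:85187681-85187980. Both have their start in an annotated exon, and both genes reach further upstream as well.
Lhx9: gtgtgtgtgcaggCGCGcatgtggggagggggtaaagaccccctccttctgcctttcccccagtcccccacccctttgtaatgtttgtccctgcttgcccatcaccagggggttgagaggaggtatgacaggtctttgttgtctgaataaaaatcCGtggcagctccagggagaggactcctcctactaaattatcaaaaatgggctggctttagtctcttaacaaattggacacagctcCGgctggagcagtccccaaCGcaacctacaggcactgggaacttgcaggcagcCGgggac
Nr2f1: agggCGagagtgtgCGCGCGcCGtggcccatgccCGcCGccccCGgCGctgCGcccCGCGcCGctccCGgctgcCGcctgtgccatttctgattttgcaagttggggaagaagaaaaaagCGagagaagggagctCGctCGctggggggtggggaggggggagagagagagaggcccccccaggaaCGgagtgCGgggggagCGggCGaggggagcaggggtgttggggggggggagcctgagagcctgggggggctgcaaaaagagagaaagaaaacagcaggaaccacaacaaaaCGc
Emx1: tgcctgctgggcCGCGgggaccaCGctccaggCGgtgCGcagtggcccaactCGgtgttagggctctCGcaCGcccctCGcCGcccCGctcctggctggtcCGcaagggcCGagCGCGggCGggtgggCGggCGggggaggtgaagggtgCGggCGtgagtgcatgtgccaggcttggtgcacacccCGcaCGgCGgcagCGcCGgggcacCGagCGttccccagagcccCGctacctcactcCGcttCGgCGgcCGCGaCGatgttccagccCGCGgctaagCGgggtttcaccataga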

How the data were processed

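Poly(A) RNA of 18 libraries was analysed in 8 groups taken from the deposited labels. The age given is postnatal day 0, which for neurospheres is that of the source tissue. The authors trimmed reads of hippocampi and neurospheres with cutadapt, aligned them to mm10 with STAR and estimated FPKM with Cufflinks 2.2.1, and the deposited FPKM were taken unchanged. The tools behind the cortical and Rnf2 FPKM values are not given in the sources used here. Their products with gene length are whole multiples of a single step per library, which gives reads on each gene (100% of values whole within 0.05). DESeq2, which the authors used on read counts, was not run because the values are FPKM. No per-sample column was left out.

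A gene's entry was its symbol or a joined name that holds it, with the highest mean where several existed. Zbtb20 was read from an entry joined with Mir568 in the hippocampal and neurosphere tables. Entries without a gene name (2861 of 27180 in the hippocampal, 2059 of 26293 in the neurosphere and 140 of 54672 in the cortical table) were dropped. The log2(FPKM + 1) of genes at a mean of 0.5 FPKM or more was fitted in each table with limma 3.58.1 in R 4.3.3 (lmFit, eBayes with a trend), and p values were adjusted by Benjamini-Hochberg over all genes. An interaction term of genotype and table tested whether effects differed. An exact permutation test of a single gene cannot go below a two-sided p of 0.1 with 3 against 3 libraries or 0.333 with 2 against 2.

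The 10 factors and the other gene lists were chosen with earlier results of these data known. Named are all 10 factors, Kdm2b and Rnf2, up to 4 called genes per other list and comparison by size, and the 5 genes most like the called factor with the largest fall. Pou3f2, Pou3f3, Pou3f4, Reln, Calb2, Bcl11b, Nes, Nrp2 and the antisense genes were named after their values were seen. The values of 1 further marker gene are not reported here. The fits were tested on simulated data. Alternatives were other pseudocounts, filters, scalings, variance priors, thresholds, a replicate block, summed entries, limma-voom on recovered reads and each library left out.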

Additional observations from a re-analysis of the deposited data

Results flagged for a closer look

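The cKO effect of 12 gene and table pairs differed from the Kdm2b effect in hippocampi by an interaction test (unadjusted p under 0.05 and a difference above 0.4 in size on the log2 scale, hippocampal minus other effect). Against neurospheres these were Emx1 (−1.10), Emx2 (0.69), Zbtb20 (0.53) and Nr2f1 (0.49), of which the first 3 had an adjusted p under 0.05 in limma. Emx1 passed the filter in neurospheres only through its cKO values. Mef2c differed by 0.38 with an adjusted p of 0.0471, under the threshold of size. Against the cortex they were Pou3f1 (−1.35), Nr2f2 (0.68), Zbtb20 (0.56), Prox1 (0.51) and Nr2f1 (0.44), and against Rnf2 cKO hippocampi Pou3f1 (−1.39), Lhx9 (0.66) and Lhx2 (−0.40), none with an adjusted p under 0.05. Of these 12, the differences of Zbtb20 and Nr2f1 against neurospheres, of Nr2f2, Prox1 and Nr2f1 against the cortex and of Pou3f1 and Lhx2 against Rnf2 cKO hippocampi lost their call when 1 library was left out. The tables were normalized separately by the authors, and the part of this in the differences was not tested.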

How the results depend on the processing

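Of 1130 values of single factors under other settings, 1018 kept their direction and their side of the threshold, 56 lost a call, 22 gained a call and 34 changed sign; the cause was not tested, and every value that changed sign came from a fold change that was not called. With no threshold of size, 4 members were called in hippocampi and 3 in Rnf2 cKO hippocampi. Under that rule 1537 of 13446 genes were higher and 1553 lower in hippocampi, and 692 and 429 of 15764 in Rnf2 cKO hippocampi. After scaling libraries to equal FPKM totals, 3 members were called in neurospheres, where 1256 of 12246 genes were higher and 830 lower. Median-ratio scaling left 1 member called higher and 5 lower there, with 1445 of 12225 genes higher and 1585 lower. With adjusted p values, 0 members were called in the cortex, where 58 of 15691 genes were higher and 9 lower. The same held in Rnf2 cKO hippocampi, where 0 of 15764 genes were called. By adjusted p values 0 member effects differed between hippocampus and cortex or Rnf2 cKO hippocampus. With each library left out, 2 factors were called in hippocampi each time, 5 in neurospheres, 1 to 4 in cortex and 0 to 3 in Rnf2 cKO hippocampi, and 3 to 5, 2 to 5 and 2 to 3 effects differed between hippocampi and neurospheres, cortex and Rnf2 cKO hippocampi.

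Signs changed in neurospheres for Prox1 (0.0916 when rescaled, −0.0829 to 0.0468 with libraries left out), in cortex for Emx2 (−0.12 to 0.26), Pou3f1 (−0.0915 to 0.0793) and Mef2c (−0.0367 when rescaled, −0.18 to 0.19 with libraries left out), and in Rnf2 cKO hippocampi for Prox1 (−0.00292 with median-ratio scaling, −0.10 to 0.11 with libraries left out), Zbtb20 (−0.49 to 0.29), Lhx9 (−0.20 to 0.0155), Pou3f1 (−0.41 to 0.48) and Nr2f1 (−0.16 to 0.0879). Differences changed sign against neurospheres for Pou3f1 (−0.60 to 0.0225) and Nr2f2 (−0.0342 with a pseudocount of 0.1, −0.41 to 0.16 with libraries left out), against cortex for Emx2 (−0.0498 to 0.33) and Mef2c (−0.34 to 0.0274), and against Rnf2 cKO hippocampi for Zbtb20 (−0.17 to 0.60), Mef2c (−0.12 to 0.14) and Nr2f2 (−0.28 to 0.16). With 1 library left in a group of 2, its spread was taken as that of the other groups. The factors called in neurospheres were not the same each time. Without the second cKO library Zbtb20 was at −0.24, Nr2f2 at 0.67 and Emx1 was not tested. Rescaling to equal totals changed the share of higher calls among all genes from 46.2% to 60.2% in neurospheres. Among differing effects it changed from 56.6% to 41.1% against neurospheres and from 33.0% to 49.8% against cortex. With median-ratio scaling these shares were 47.7%, 53.9% and 31.1%.

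The labels gave no link between same-numbered replicates beyond the number. Correlations of their deviations were 0.05, −0.10 and −0.09 in hippocampi, −0.28 in neurospheres, −0.05 in cortex and 0.16 in Rnf2 hippocampi. With 2 libraries per group, same-numbered and crossed pairs give the same value with opposite sign, so these correlations do not settle whether replicates were paired. With the replicate number as a block, 2, 6, 3 and 1 factors were called in the 4 comparisons and 4, 5 and 3 effects differed, as without it. Over all genes, higher and lower calls with the block were 520 and 311 in hippocampi and 1380 and 1612 in neurospheres. Without it they were 523 and 303, and 1392 and 1619. In cortex the block gave 788 and 409 against 742 and 358, and in Rnf2 hippocampi 552 and 437 against 451 and 291. A crossed pairing of the neurospheres, chosen after seeing the data, gave 1445 higher and 1638 lower calls over all genes and 6 factors.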
